A study of Homo sapiens with 7 samples.

Results

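The genes described here were 8 Toll-like receptor genes (TLR1, TLR2, TLR3, TLR4, TLR5, TLR6, TLR9 and TLR10), CD14 and MYD88, 10 of the 20163 protein-coding genes in the annotation. The rule that chose them names the genes and uses no measured value, but it was written with earlier results of these data known. Binding was measured by ChIP-seq, which sequences the DNA recovered with an antibody, in Kasumi-1, an established myeloid leukemia cell line that carries the t(8;21) translocation. The cells were taken in log phase with no treatment named, and every library came from this 1 line, so no cell without AML1-ETO served as a comparison. Separate libraries were made for AML1 (RUNX1), with an antibody to its C-terminus that does not recover the fusion protein, for AML1-ETO, with an antibody to ETO, for the co-repressor N-CoR, for the co-activator p300 and for H3K4me3, a histone mark of transcription starts. The 2 biological replicates of each were pooled by the authors before peak calling, which left 1 list of summits per antibody, a summit being the position where a peak is highest. The AML1-ETO list held 18087 summits, the AML1 list 11692, the p300 list 11020, the N-CoR list 10004 and the H3K4me3 list 19632, with no height or read count. No spread between replicates can be given and no test was made between lists. The read depth behind a single summit is unknown, so a locus without a summit had none at the calling threshold and cannot be called unbound.

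Peak names in the N-CoR list carry the same prefix as those of AML1-ETO, and names in the p300 and H3K4me3 lists the same prefix as those of AML1. The positions themselves differed: N-CoR shared 92 identical summits with AML1-ETO, p300 shared 38 with AML1 and H3K4me3 shared 0 with AML1. Of the H3K4me3 summits, 80.7% (80.1 to 81.2%) lay within 1 kb of a protein-coding start. All intervals given are exact Clopper-Pearson 95% intervals and cover counting error only.

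Toll-like receptors recognise molecules of microbes at the cell surface or inside endosomes. TLR2 pairs with TLR1 or TLR6 to sense bacterial lipopeptides, TLR4 responds to lipopolysaccharide with the help of CD14, TLR5 binds flagellin, TLR3 binds double-stranded RNA and TLR9 binds DNA with unmethylated CpG. All of these except TLR3 can signal through the adaptor MYD88, and in myeloid cells the pathway drives inflammatory gene expression. AML1-ETO joins the DNA-binding domain of AML1, which recognises Runx motifs, to ETO, a protein that recruits N-CoR and the histone deacetylases bound to it, whereas p300 acetylates histones.

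A gene was said to carry a list when at least 1 summit lay in its annotated body or within 5 kb of it. AML1-ETO was carried by 5 of the 10 genes (TLR1, TLR5, TLR9, TLR10 and MYD88), against 41.3% of all protein-coding genes. N-CoR was carried by 3 of them (TLR1, TLR5 and TLR9), against 26.7%, and AML1 and p300 by MYD88 alone, against 34.9% and 45.5%. H3K4me3 was carried by 4 (TLR2, TLR5, CD14 and MYD88), against 68%. Every N-CoR summit at these genes stood within 27 bp of an AML1-ETO summit. TLR3, TLR4 and TLR6 carried none of the 5 lists, as did 25.8% of protein-coding genes, and TLR2 and CD14 carried H3K4me3 alone.

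Of the 6 AML1-ETO windows within 5 kb of the genes, 5 are printed because the statements on AML1-ETO at these genes rest on them. Each is the 100 bp around a summit in the reference genome GRCh37, plus strand, 5′ to 3′. Capitals mark the Runx consensus TGTGGT, read on either strand (ACCACA on the other). The consensus of PU.1, a transcription factor of myeloid cells, was searched in the same way as GAGGAA on either strand, and no letter was shared between the motifs in the windows printed. Only exact matches were counted, so a window said to lack a consensus may still hold a variant of it.
TLR1, chr4:38807280-38807379: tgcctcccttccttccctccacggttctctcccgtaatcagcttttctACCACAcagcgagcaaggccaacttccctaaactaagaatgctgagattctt
TLR1 and TLR10, chr4:38787691-38787790: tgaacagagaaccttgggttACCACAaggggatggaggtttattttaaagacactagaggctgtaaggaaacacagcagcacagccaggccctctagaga
TLR5, chr1:223317249-223317348: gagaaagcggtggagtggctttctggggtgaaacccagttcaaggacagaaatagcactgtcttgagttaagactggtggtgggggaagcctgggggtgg
TLR9, chr3:52260112-52260211: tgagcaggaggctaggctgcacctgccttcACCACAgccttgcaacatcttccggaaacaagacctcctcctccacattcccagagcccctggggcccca
MYD88, chr3:38178879-38178978: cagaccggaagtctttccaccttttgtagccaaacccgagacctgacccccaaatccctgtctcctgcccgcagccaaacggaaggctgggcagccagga

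The Runx consensus stood in 3 of the 6 windows, at TLR1, between TLR10 and TLR1, and at TLR9, always as ACCACA on the plus strand. Of all AML1-ETO windows, 31.3% (30.6 to 32%) held it. The PU.1 consensus was in 0 of the 6, against 26% (25.3 to 26.6%) of all AML1-ETO windows. Within 100 bp of the summit, 4 of the 6 held the Runx consensus and 1 held the PU.1 consensus, beside 39.9% of all AML1-ETO summits for each motif at that width. In the 100 bp windows, 3 of the 6 held at least 1 of the motifs and 3 held neither, among them those printed for TLR5 and MYD88, and 49.3% of all AML1-ETO windows held at least 1. With 6 windows, these counts describe the loci only.

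**Figure D1:**
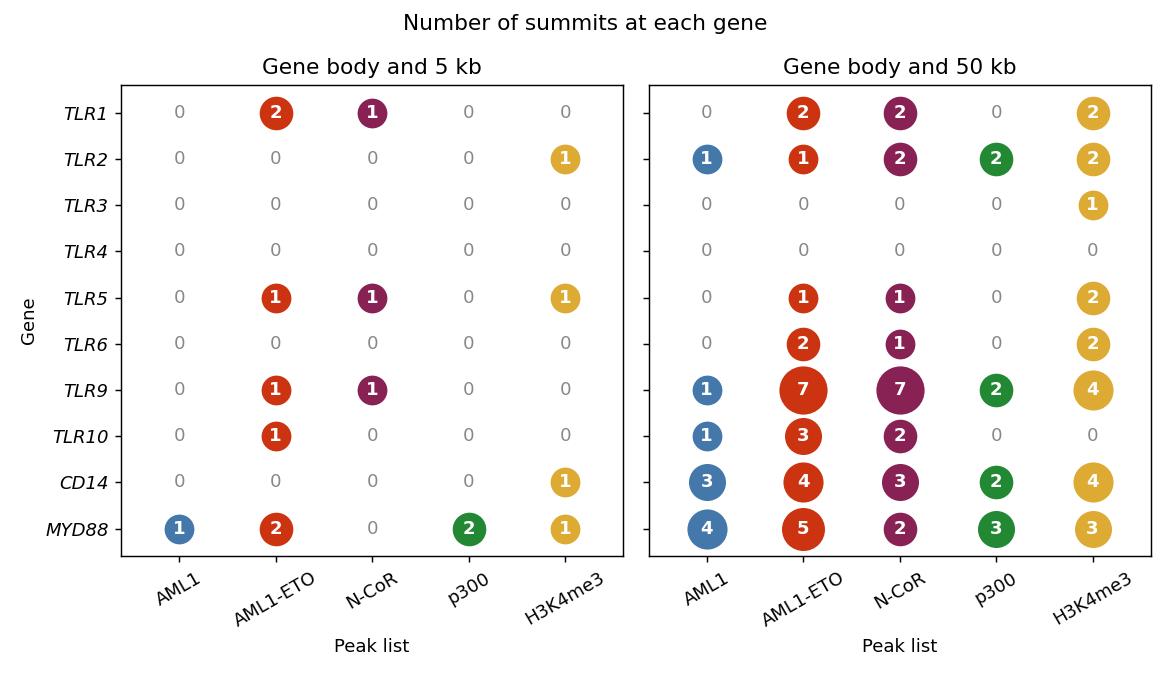
Number of summits of each peak list (columns) at each gene (rows), counted in the gene body and 5 kb to either side (left) or 50 kb to either side (right). Numbers are summit counts, circle area grows with the count and grey zeros stand for no summit. N-CoR was present within 5 kb at TLR1, TLR5 and TLR9 only, and TLR4 was empty in both views.

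Among the surface receptors that pair with TLR2, TLR1 carried 2 AML1-ETO summits and 1 N-CoR summit, and no summit of the other lists. The gene record of TLR1 (ENSG00000174125.8_10) spans chr4:38792298-38858438 on the minus strand, because its longest transcript begins at the start of TLR6. Its canonical transcript, the representative chosen in the annotation, begins at 38806412. The AML1-ETO summit at 38807330 (peak number 11629 of its list) lay 918 bp upstream of that start, in an intron of the longest transcript and 131 bp from the nearest annotated start of the gene. An N-CoR summit (number 6805) stood 8 bp from it, at 38807338. The nearest AML1 and p300 summits were 74406 and 138449 bp away, and the nearest H3K4me3 summit was 61709 bp away. This was therefore an AML1-ETO and N-CoR site at a TLR1 start with no other list nearby.

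TLR10, whose ligand is less settled than those of the other receptors, lies next to TLR1 at chr4:38773859-38784611 (ENSG00000174123.11_8), also on the minus strand. It carried 1 AML1-ETO summit (number 6668), at 38787741, between the genes and 3130 bp upstream of the canonical TLR10 start. That summit also counted for TLR1, whose gene record ends within 5 kb of it, so the 7 assignments of AML1-ETO to these genes came from 6 different summits. The nearest N-CoR summit was 19597 bp away and the nearest AML1 summit 54817 bp away. With the canonical transcript of TLR1 in place of its gene record, this summit belonged to TLR10 alone, and the count of genes with AML1-ETO stayed at 5.

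TLR6, the third gene of this cluster, at chr4:38824518-38858438 (ENSG00000174130.13_11), carried 0 summits of any list within 5 kb. The AML1-ETO and N-CoR pair near the TLR1 start lay 17188 and 17180 bp from its 3′ end. Upstream of TLR6, the nearest H3K4me3 summit stood 10601 bp from its start and 259 bp from a start of FAM114A1. The 3 genes thus differed although they are neighbours: TLR1 had AML1-ETO with N-CoR, TLR10 had AML1-ETO alone and TLR6 had neither.

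TLR2, the common partner of TLR1 and TLR6, carried 1 H3K4me3 summit (number 3698), 208 bp downstream of its canonical start at 154605432 on chromosome 4. None of the 4 proteins had a summit within 5 kb of the gene, which spans chr4:154605222-154627412 (ENSG00000137462.9_10) on the plus strand. The nearest AML1-ETO, N-CoR and p300 summits stood together, 22674, 22678 and 22657 bp upstream of the start. They lay within 21 bp of one another between protein-coding genes, and TLR2 had the nearest protein-coding start. The N-CoR summit there was number 219 of its list, the p300 summit number 1400 and the AML1-ETO summit number 15766. Each list is numbered in file order, and what sets that order is not given in the sources used here. A second pair of N-CoR and p300 summits, 30 bp apart, lay 32453 and 32483 bp upstream of TLR2, with the nearest AML1-ETO summit 9779 bp from the N-CoR summit.

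TLR4, the lipopolysaccharide receptor, had no summit of any list in the gene (ENSG00000136869.16_9, chr9:120466453-120487013, plus strand) or within 50 kb. The nearest AML1 and AML1-ETO summits were 101460 and 101493 bp from the gene. N-CoR and p300 were 1154698 and 1154674 bp away, and H3K4me3 was 1016425 bp away. Of all protein-coding genes, 1.1% were at least as far from an H3K4me3 summit, 2.84% from a p300 summit and 3.09% from an N-CoR summit. For AML1 and AML1-ETO the shares were 27.1% and 22%. TLR4 was the 1 gene of the 10 with no summit within 50 kb, although TLR3 was farther from AML1 and AML1-ETO.

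TLR5, the flagellin receptor (ENSG00000187554.14_15, chr1:223282746-223316590, minus strand), carried AML1-ETO, N-CoR and H3K4me3, with 1 summit each, all upstream of its start at 223316590. The H3K4me3 summit was 287 bp, the AML1-ETO summit (number 11567) 709 bp and the N-CoR summit (number 3178) 715 bp from the start. AML1-ETO and N-CoR were thus 6 bp apart, and H3K4me3 was 422 bp from AML1-ETO. The nearest AML1 summit lay 147118 bp and the nearest p300 summit 431172 bp from the AML1-ETO summit. TLR5 was the 1 gene of the 10 that carried AML1-ETO, N-CoR and H3K4me3 without AML1 and p300, as did 0.749% of protein-coding genes.

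**Figure D2:**
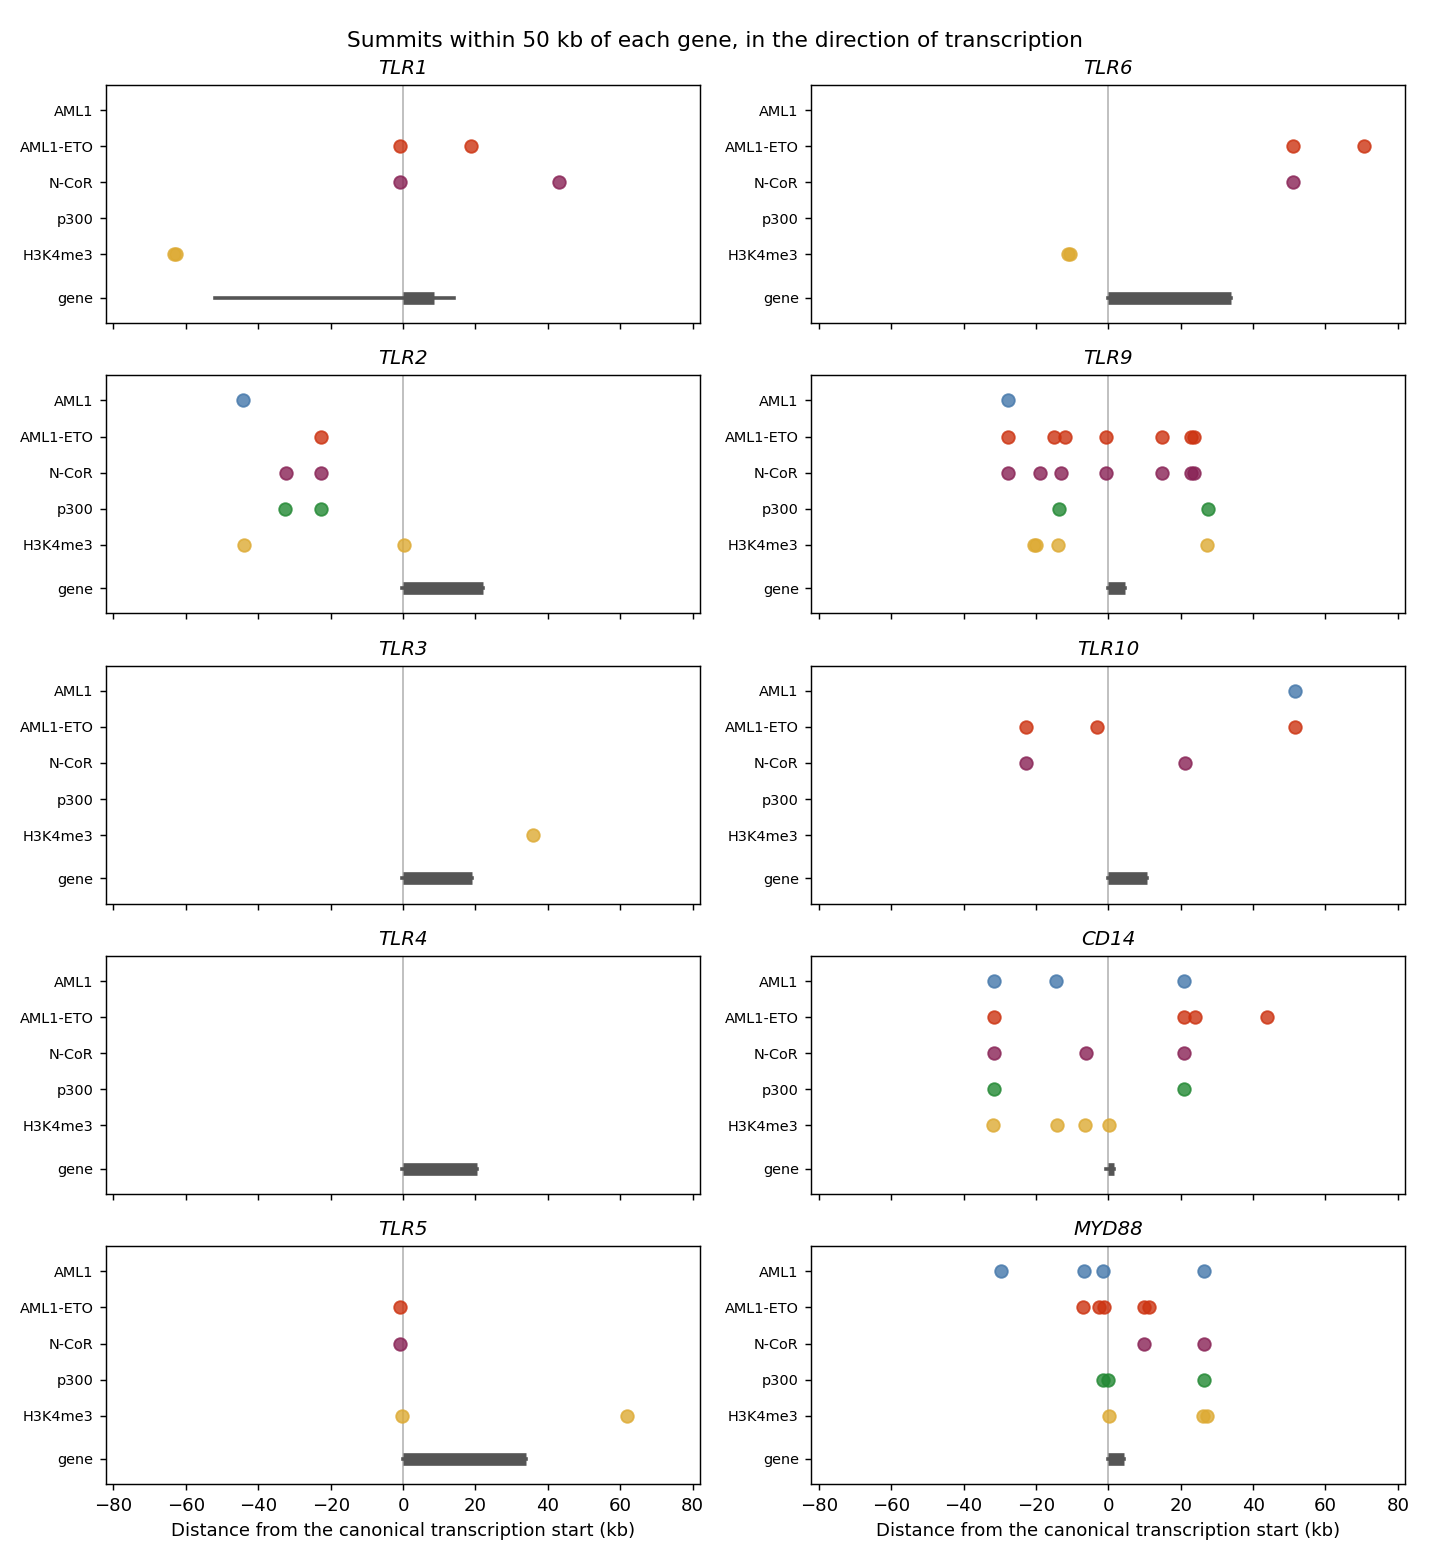
Summits of the 5 lists (coloured points, 1 row per list) around each gene, by distance in kb from the canonical transcription start, with positive values in the direction of transcription. The thick bar is the canonical transcript and the thin bar the whole gene record, and summits are drawn out to 50 kb from the gene record. AML1-ETO and N-CoR points coincide just upstream of the starts of TLR1, TLR5 and TLR9, whereas TLR2 and CD14 have H3K4me3 at the start and the proteins at a distance.

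Of the endosomal receptors, TLR9 (ENSG00000239732.4_8, chr3:52255096-52259661, minus strand) carried 1 AML1-ETO and 1 N-CoR summit. The AML1-ETO summit (number 6141) stood 501 bp and the N-CoR summit (number 8701) 528 bp upstream of the TLR9 start at 52259661, 27 bp from each other. Both positions fall in an intron of an overlapping protein-coding gene model, ENSG00000173366, but TLR9 had the nearest start. The nearest H3K4me3 summit was 13281 bp and the nearest p300 summit 13199 bp from the AML1-ETO summit, at TWF2, the neighbouring gene for an actin-binding protein. The AML1-ETO and N-CoR summits at TLR9 were therefore close to a start that had no H3K4me3 summit.

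TLR3 (ENSG00000164342.14_10, chr4:186990065-187009227, plus strand) carried none of the lists within 5 kb. Within 50 kb there was 1 H3K4me3 summit, 16952 bp from the gene and 321 bp from a start of FAM149A. AML1-ETO and p300 summits were 102968 and 103370 bp from TLR3. AML1 and N-CoR were 540238 and 555242 bp away, and 4.47% and 8.85% of protein-coding genes were at least as far from these lists. For AML1-ETO, p300 and H3K4me3 the shares were 21.7%, 25.9% and 26.4%.

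CD14, the co-receptor that hands lipopolysaccharide to TLR4 (ENSG00000170458.15_10, chr5:140011313-140013285, minus strand), carried 1 H3K4me3 summit (number 19024), in coding sequence 305 bp downstream of its canonical start. No protein had a summit within 5 kb. The nearest N-CoR summit stood 5523 bp from the gene, just outside that distance, and 212 bp from a start of TMCO6. Beyond the 3′ end of CD14, all 4 proteins had a summit within 54 bp of one another, between protein-coding genes and with CD14 as the nearest protein-coding start. AML1 (number 82) was 20998 bp, AML1-ETO (number 1711) 20978 bp, N-CoR (number 220) 20965 bp and p300 (number 7726) 21019 bp downstream of the canonical start. The nearest H3K4me3 summit was 20673 bp from this AML1-ETO summit.

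The sequences at the distal sites of CD14 and TLR2 are shown because AML1-ETO, N-CoR and p300 met there, at the nearest AML1-ETO sites to 2 genes that carried no protein within 5 kb. The CD14 window held the Runx consensus at 2 positions, in capitals, and the TLR2 window held neither consensus.
CD14, chr5:139991732-139991831: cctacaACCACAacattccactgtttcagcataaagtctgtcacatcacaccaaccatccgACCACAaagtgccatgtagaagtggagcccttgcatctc
TLR2, chr4:154582708-154582807: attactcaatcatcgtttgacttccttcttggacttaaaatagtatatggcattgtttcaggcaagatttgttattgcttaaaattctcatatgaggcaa

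MYD88, the adaptor (ENSG00000172936.18_15, chr3:38180043-38184515, plus strand), was the 1 gene of the 10 with AML1 or p300 within 5 kb, and it lacked N-CoR there. It carried 2 AML1-ETO summits, 1 AML1 summit, 2 p300 summits and 1 H3K4me3 summit. The H3K4me3 summit (number 1220) lay 303 bp and a p300 summit (number 2409) 52 bp downstream of the canonical start at 38180152, both in coding exons. Upstream, an AML1-ETO summit (number 8767) stood at 1223 bp, AML1 at 1374 bp and the other p300 summit at 1583 bp from that start. These 3 upstream summits and the other AML1-ETO summit had ACAA1 as the nearest protein-coding gene, a gene of peroxisomal fatty acid oxidation that is transcribed away from MYD88. The AML1 summit and AML1-ETO summit 8767 were 151 bp apart, so their windows did not overlap. When a summit was counted only for the gene with the nearest start, MYD88 kept H3K4me3 and p300 and lost AML1 and AML1-ETO. The nearest N-CoR summit was 5555 bp beyond the 3′ end of MYD88 and 57 bp from a further AML1-ETO summit.

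**Figure D3:**
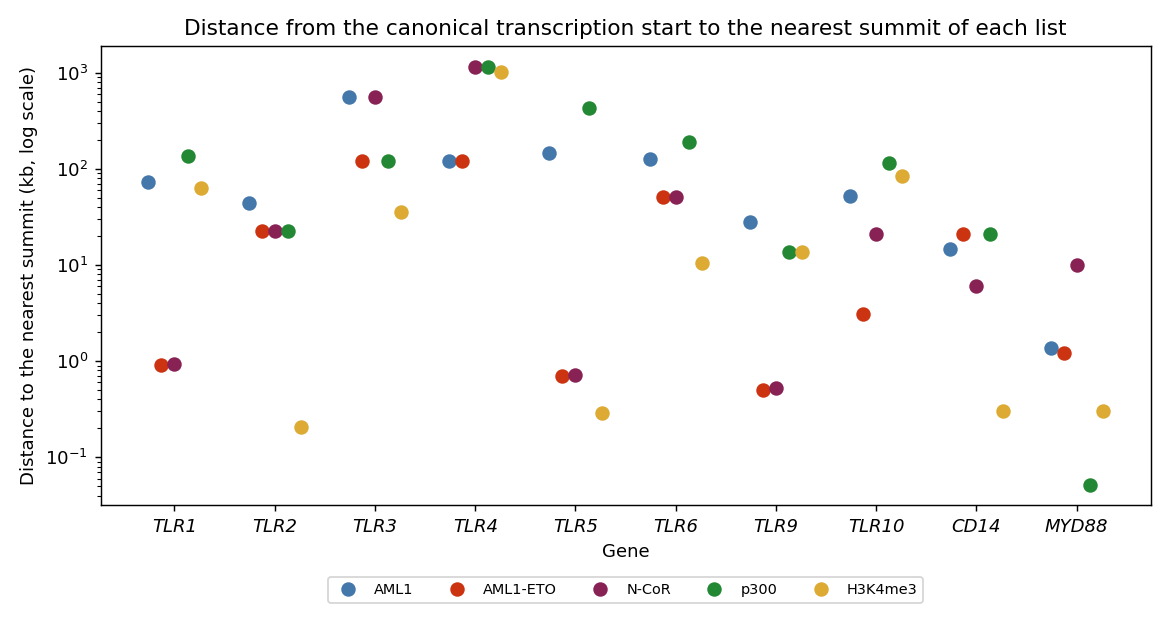
Distance in kb on a log scale from the canonical transcription start of each gene to the nearest summit of each list (coloured points). AML1-ETO and N-CoR lay under 1 kb from the starts of TLR1, TLR5 and TLR9, and the nearest N-CoR, p300 and H3K4me3 summits were farther from the start of TLR4 than from any other of the 10.

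The counts within 5 kb were set beside the share of all protein-coding genes that carry each list by the same rule. The interval of this share was 40.7 to 42% for AML1-ETO, found at 5 of the 10, and 26.1 to 27.3% for N-CoR, found at 3. Both lists were carried by 3 of the 10 and by 22.7% (22.1 to 23.3%), and overlapping windows of AML1-ETO and N-CoR were found at 3 of the 10 and at 19.1% (18.6 to 19.7%). With 10 genes, these counts were near the background, and in the gene body alone they were below it, at 1 of the 10 against 29.6% for AML1-ETO, 18.1% for N-CoR and 15.5% for both. For AML1 and p300, each at 1 of the 10, the intervals were 34.2 to 35.5% and 44.8 to 46.2%, and for H3K4me3, at 4, the interval was 67.4 to 68.7%. Over all annotated genes, protein-coding or not, the H3K4me3 share was 33.3%, and 4 of the 10 stood above it. That pool is unlike the 10, which are all protein-coding. Over protein-coding genes in their range of window length the share was 68.2%. The same 4 genes had H3K4me3 within 1 kb of a start, against 62.3% (61.6 to 63%). None of the proteins was found at 5 of the 10, against 38.5% (37.9 to 39.2%). Relative to length, the 10 gene windows held 2.2 AML1-ETO summits per 100 kb, against 1.04 over all protein-coding gene windows. In both sets a summit shared by several windows was counted for each, and the sets were not matched for window length. The values were 0.945 against 0.564 for N-CoR, 0.315 against 0.671 for AML1, 0.63 against 0.854 for p300 and 1.26 against 1.57 for H3K4me3. These differences were not tested, since the genes are not replicates and share loci.

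**Figure D4:**
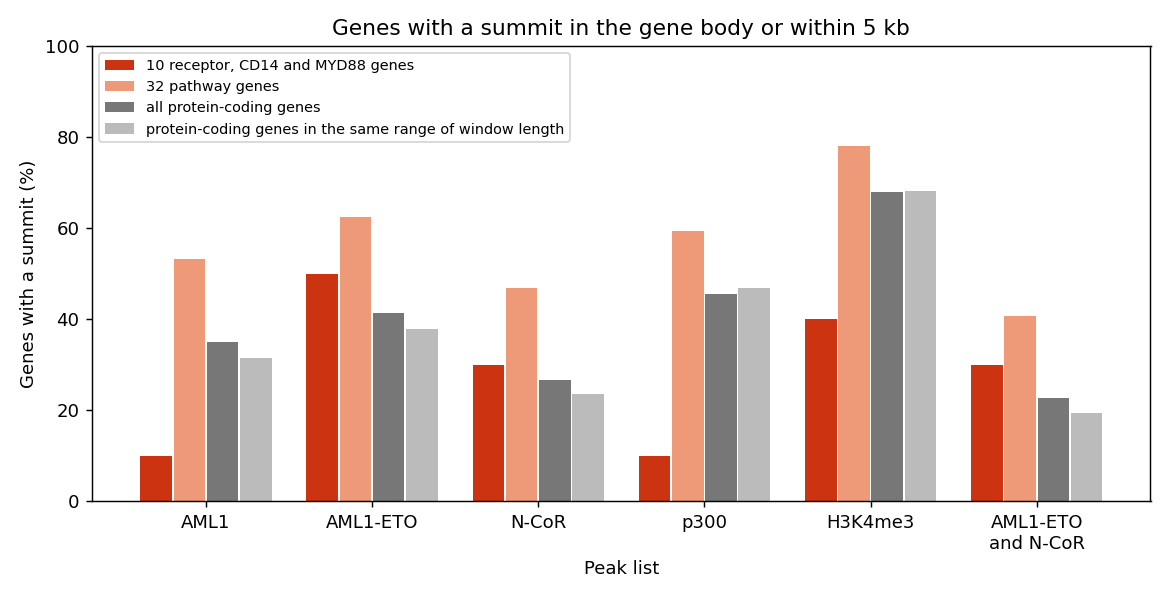
Share of genes in percent with a summit in the gene body or within 5 kb, for each list and for AML1-ETO with N-CoR. Red bars are the 10 genes described here, light red the 32 other pathway genes, dark grey all protein-coding genes and light grey the protein-coding genes whose windows are 11973 to 76141 bp long, the range of the 10 genes. AML1, p300 and H3K4me3 stood below the grey bars in the 10 genes, and AML1-ETO and N-CoR near or slightly above them, which turned to below all protein-coding genes when the gene body alone was counted.

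At TLR1, TLR5 and TLR9 the pair of AML1-ETO and N-CoR came without AML1 and without p300 within 5 kb. This combination, which was singled out after the values were seen, was found at 1.04% (0.906 to 1.19%) of protein-coding genes. TLR1 and TLR9 carried no other list, as did 0.293% of protein-coding genes, and TLR5 added H3K4me3, as did 0.749%. The pattern of TLR10, AML1-ETO alone, was that of 1.62%. The pattern of TLR2 and CD14, H3K4me3 alone, was that of 12.7%. MYD88, with every list except N-CoR, had the pattern of 5.28%.

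None of the 6 AML1-ETO windows within 5 kb overlapped an AML1 or a p300 window, and 3 overlapped an N-CoR window. In the whole AML1-ETO list, 46.2% (45.5 to 46.9%) of summits overlapped AML1, 21.8% (21.2 to 22.4%) overlapped p300 and 38.9% (38.2 to 39.6%) overlapped N-CoR. An H3K4me3 summit lay within 1 kb of 1 of the 6, at TLR5, and of 27.4% (26.7 to 28%) of the whole list.

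In the wider view of 50 kb, 8 of the 10 genes had AML1-ETO, and the same 8 had N-CoR; TLR3 and TLR4 had neither. The backgrounds were 66.5% for AML1-ETO, 48.7% for N-CoR and 45.4% for both. AML1 was within 50 kb of 5 genes (TLR2, TLR9, TLR10, CD14 and MYD88), against 59.8%, p300 of 4 (TLR2, TLR9, CD14 and MYD88), against 64.4%, and H3K4me3 of 8, against 80.9%. TLR9 had the most summits, with 7 of AML1-ETO and 7 of N-CoR. Of these, only AML1-ETO summit 6141 and N-CoR summit 8701 had TLR9 as the nearest protein-coding start. The others were nearest to ALAS1, TWF2 or PPM1M. TLR4 was the 1 gene with no summit, as were 12.9% of protein-coding genes.

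This wider region held 21 different AML1-ETO summits, of which 11 overlapped N-CoR, 52.4% (29.8 to 74.3%), 5 overlapped AML1, 23.8% (8.22 to 47.2%), and 3 overlapped p300, 14.3% (3.05 to 36.3%). These intervals treat the summits as independent, although many lie together, as the 7 AML1-ETO summits around TLR9 do. The shares of the whole list are given above, and no test against them was made. Of the 17 N-CoR summits, 11 overlapped AML1-ETO, 64.7% (38.3 to 85.8%), against 70.3% (69.4 to 71.2%) of the whole N-CoR list. Summits of neighbouring genes are included here, and several are nearest to other genes.

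The other genes of the pathway were taken from 3 lists with 32 genes in all. Within 5 kb, 20 of the 32 carried AML1-ETO, against 41.3% of all protein-coding genes, 15 carried N-CoR, against 26.7%, and 13 carried both, against 22.7%. H3K4me3 was carried by 25, against 68%, p300 by 19, against 45.5%, and AML1 by 17, against 34.9%. These differences were not tested either. Of the 10 receptors, co-receptors and chaperones, 5 carried AML1-ETO with N-CoR and 4 carried no list, beside 22.7% and 25.8% of all protein-coding genes. The 4 were TLR7 and TLR8, the endosomal receptors for single-stranded RNA, LY96, which binds lipopolysaccharide together with TLR4, and LBP, the plasma protein that delivers it. TLR7 also had no summit within 50 kb, the same as TLR4. The 5 were UNC93B1, which carries endosomal receptors to their compartment, CNPY3 and HSP90B1, chaperones of Toll-like receptors, LY86, a partner of the receptor homologue CD180, and CD36, a scavenger receptor that works with TLR2.

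UNC93B1 had 4 AML1-ETO summits, of which 1 overlapped N-CoR. At CD36, 2 of 3 AML1-ETO summits did so, and at LY86 1 of 3. At CNPY3 and HSP90B1 0 of 2 AML1-ETO summits overlapped N-CoR, the closest pairs being 737 and 22859 bp apart. Of the 32 genes, 11 had overlapping windows of both lists, against 19.1% of all protein-coding genes, beside the 13 that carried both, against 22.7%. CD180 carried AML1-ETO alone, the pattern of TLR10.

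Of the 7 adaptors and inhibitors, 7 carried H3K4me3, 5 carried AML1-ETO and 3 carried AML1-ETO with N-CoR, beside 68%, 41.3% and 22.7% of all protein-coding genes. These 3 were SIGIRR, an inhibitory receptor, with 4 AML1-ETO summits, IRAK3, an inhibitor of the IRAK kinases, with 1, and TICAM2, an adaptor of TLR4, with 1. At each of the 3 genes 1 AML1-ETO summit overlapped N-CoR. TICAM1, the adaptor of TLR3, and TOLLIP, an inhibitor, had the pattern of MYD88, every list except N-CoR. SARM1, an inhibitor of TICAM1 signalling, had that of TLR2 and CD14. TIRAP, which bridges TLR2 and TLR4 to MYD88, carried N-CoR, p300 and H3K4me3 and no AML1-ETO.

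Of the 15 kinases, ligases and interferon regulatory factors, 15 carried H3K4me3, 9 carried AML1-ETO and 5 carried AML1-ETO with N-CoR, beside the same 3 background shares. IRAK2, a kinase recruited by MYD88, had 7 AML1-ETO summits, the most of the 32 genes, and 3 of them overlapped N-CoR. IRF5, a transcription factor activated downstream of MYD88, had 4 summits of each of the 4 proteins. All 4 AML1-ETO summits of IRF5 overlapped N-CoR, all 4 overlapped AML1 and 2 overlapped p300. IKBKE, a kinase of the interferon branch, had 3 AML1-ETO summits, of which 2 overlapped N-CoR and 3 overlapped p300. TAB1 had 1 of 2 and TAB2 1 of 3 overlapping N-CoR, both being partners of the kinase MAP3K7. TAB2 had the pattern of TLR5, with AML1-ETO, N-CoR and H3K4me3 but neither AML1 nor p300, and was the 1 gene of the 32 with AML1-ETO and N-CoR and without AML1 and p300, a combination of 1.04% of all protein-coding genes. IRF7 and TRAF6 had the pattern of MYD88, and IRAK1, TAB3 and TRAF3 that of TLR2 and CD14.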

How the data were processed

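The authors aligned reads to GRCh37 (hg19) with Bowtie 0.12.8, allowing 2 mismatches, pooled 2 biological replicates per antibody and called peaks with MACS2 2.0.10.20131216 at p < 1e-20. The deposited lists give positions of 100 bp intervals; every interval was checked to have this width, and the summit was taken at its centre. The control used in peak calling is not given in the sources used here. Genes came from GENCODE release 44 lifted to GRCh37, and sequences from the GRCh37 genome. Windows of 50 bp to either side overlapped when they shared at least 1 bp. No test was made; shares have exact Clopper-Pearson 95% intervals. The counting was tested on simulated data, where 2000 of 2000 gene windows and 1176 of 1176 planted overlaps were recovered. Members and gene lists were chosen with earlier results of these data known. All 10 genes are named, and of the 13 pathway genes with AML1-ETO and N-CoR the 12 with most AML1-ETO summits; others are named for a pattern shared with 1 of the 10 or, as TICAM2 and TIRAP, after their values were seen. Alternatives varied distances, gene spans, lists and backgrounds. H3K27me3 and input were not analysed here. The sequence of 1 AML1-ETO window is not reported here. Python 3.11.15, SciPy 1.17.1, pysam 0.24.0 and matplotlib 3.10.9 were used.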

Additional observations from a re-analysis of the deposited data

How the results depend on the processing

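No paired analysis was possible because each antibody has 1 pooled list. Of 62 alternatives, 34 stayed within 1.5 times the count or inside the interval of the share and 28 moved. Against the background of the same setting, AML1-ETO, N-CoR and both together went from above to below in the gene body alone. N-CoR and both together did so with the earlier 50% of each list. H3K4me3 went from below to above the share of all annotated genes, a pool that, unlike the 10, is not limited to protein-coding genes. Windows of 2 kb left the counts of genes for all 5 lists within 1.5 times, and so did the canonical transcript span, which was chosen after seeing the data. In the gene body alone, AML1 had 0 genes (background 23%), and AML1-ETO, N-CoR and both together had 1, TLR1 (29.6, 18.1 and 15.5%). With 10 kb, N-CoR had 5 genes, CD14 and MYD88 being added (30.3%). With 50 kb, AML1 had 5, AML1-ETO 8, N-CoR 8, p300 4, H3K4me3 8 and AML1-ETO with N-CoR 8, with the backgrounds given in the report. Counting only the gene with the nearest start gave 0 for AML1 (27.2%). Keeping the earlier 50% of each list in file order gave 0 genes for AML1 (19.8%), 1 for N-CoR, TLR5 (13.8%), 2 for H3K4me3 (51.7%) and 0 for AML1-ETO with N-CoR (11.4%). Within 100 bp of the summit, 1 of 6 AML1-ETO windows held the PU.1 consensus (39.9% of the whole list). Over all annotated genes, the backgrounds were 33.3% for H3K4me3, 22% each for AML1-ETO and p300, 17.8% for AML1, 13.7% for N-CoR and 11.5% for AML1-ETO with N-CoR. Over protein-coding genes in the range of window lengths of the 10 genes, they were 46.9% for p300, 37.8% for AML1-ETO, 31.4% for AML1, 23.6% for N-CoR and 19.4% for AML1-ETO with N-CoR. A stricter peak threshold was not run, since the lists hold no score.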

Other observations

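Most summits counted within 50 kb were nearest to other genes than the 10. Near TLR9, 3 pairs of AML1-ETO and N-CoR summits lay in introns of ALAS1, the rate-limiting enzyme of heme synthesis, 11, 42 and 30 bp apart. On the other side of TLR9, AML1, AML1-ETO (number 301) and N-CoR summits stood together between protein-coding genes, 4457, 4475 and 4509 bp from a start of PPM1M, a protein phosphatase gene, in a window with the PU.1 motif as well as the Runx motif. Near CD14, summits of all 5 lists lay at the WDR55 start, with AML1-ETO 95 bp, AML1 112 bp, N-CoR 114 bp, p300 47 bp and H3K4me3 190 bp from it. Near MYD88, the OXSR1 start had AML1, N-CoR and p300 at 26, 52 and 35 bp and H3K4me3 at 291 bp, and the nearest AML1-ETO summit was 15141 bp from that N-CoR summit.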
